A study of Mus musculus with 12 samples.

Results

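The AKR1C hydroxysteroid dehydrogenases of the mouse form a cluster of neighbouring genes on chromosome 13, and 8 of them were followed here in kidney: Akr1c6, Akr1c12, Akr1c13, Akr1c14, Akr1c18, Akr1c19, Akr1c20 and Akr1c21. They were taken by name from the 19938 genes measured, each through its 1 probe set, and the family was selected on the array signals themselves, because Akr1c18 and Akr1c14 were far lower in KL null than in wild-type kidney. Since the members were chosen by that contrast, their values in it are a description without a test. Total kidney RNA of female mice was hybridised to 12 whole-transcript arrays, 4 in each of 3 groups: KL null mice given vehicle, wild-type mice given recombinant FGF23, and wild-type mice given vehicle. FGF23 was injected into the peritoneum at 500 ng per g body weight, vehicle was 100 µl saline, and kidneys were taken 1 hour later. The standard diet had been given for 5 to 8 weeks. The strain label is 129/SvEv/C57BL/6 for KL null and C57BL/6 for wild type, although the protocol speaks of littermates, so genotype and strain label cannot be told apart. Whether the arrays of a group were hybridised with RNA of separate mice is not stated in the labels, and p-values speak only of the spread among 12 samples. Whole kidney was used, so fewer cells of a type and less RNA per cell cannot be told apart.

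AKR1C enzymes are cytosolic oxidoreductases that use NADPH or NADH to interconvert keto and hydroxy groups on steroids, and several also act on prostaglandins. By turning an active hormone into a weak one, or the reverse, they set how much steroid reaches its receptor inside a cell. FGF23, a hormone secreted by bone, makes the kidney excrete more phosphate and activate less vitamin D, and klotho, encoded by Kl, is the co-receptor through which it acts on tubule cells. All values are log2 signals per probe set, in which a difference of 1 is a doubling of signal, and they are given for arrays 1 to 4 of a group in that order. No level of one probe set was compared with that of another.

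The Kl probe set gave 9.72 ± 0.07 in KL null, 10.51 ± 0.08 in wild-type FGF23 and 10.61 ± 0.13 in wild-type vehicle kidneys (SD, n = 4 each), lower in KL null by a log2 difference of -0.89 (SE 0.08, limma adjusted p = 1.753e-05). Whether this probe set covers the altered part of the gene was not examined, so it is a limited check of the labels. Xist lay between 11.06 and 11.41 on all 12 arrays, which are labelled female, and 3 Y-linked genes lay between 2.70 and 3.74. The SD of all log2 values on an array was 2.19 to 2.28 in KL null, 2.17 to 2.25 in wild-type FGF23 and 2.23 to 2.28 in wild-type vehicle, and it was 2.17 on each of FGF23 arrays 1 and 2.

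Akr1c18, the 20-alpha-hydroxysteroid dehydrogenase that inactivates progesterone and is best known from mouse corpus luteum and the adrenal X-zone, was the gene furthest below wild-type vehicle in KL null kidney. Its log2 signals were 8.01, 6.57, 8.11 and 7.49 in KL null, 10.95, 11.71, 12.55 and 12.57 in wild-type FGF23, and 12.65, 11.90, 12.36 and 12.03 in wild-type vehicle. Every KL null array lay below every wild-type array, with a gap from 8.11 to 10.95, while the FGF23 and vehicle ranges overlapped. KL null differed from wild-type vehicle by -4.69 (SE 0.35), a 25.8-fold lower signal and rank 1 among the 19938 genes sorted from the lowest difference. Set against wild-type FGF23, the difference was -4.40, or 21.1-fold lower.

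Akr1c14, a 3-alpha-hydroxysteroid dehydrogenase that reduces dihydrotestosterone and dihydroprogesterone, followed the same order of groups with a smaller distance. Signals were 6.79, 6.31, 7.52 and 7.73 in KL null, 8.67, 9.37, 10.28 and 10.29 in wild-type FGF23, and 10.39, 10.08, 10.07 and 9.88 in wild-type vehicle. All KL null arrays again lay below all wild-type arrays, and the wild-type groups overlapped. The KL null difference was -3.02 against vehicle (SE 0.34, 8.10-fold lower, rank 7 from the lowest) and -2.57 against FGF23 (5.92-fold lower).

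Akr1c14 and Akr1c18 are next to each other on the chromosome and were the only members lower in KL null without overlap. The 250 bases before each start site are shown because both genes were low in the same kidneys; they are RefSeq sequence of GRCm38.p6, written 5′ to 3′ on the strand of the gene, with any match to the motifs searched in capitals. The Akr1c14 stretch is chr13:4059341-4059590 on the plus strand and the Akr1c18 stretch is chr13:4150647-4150896 on the minus strand.
Akr1c14: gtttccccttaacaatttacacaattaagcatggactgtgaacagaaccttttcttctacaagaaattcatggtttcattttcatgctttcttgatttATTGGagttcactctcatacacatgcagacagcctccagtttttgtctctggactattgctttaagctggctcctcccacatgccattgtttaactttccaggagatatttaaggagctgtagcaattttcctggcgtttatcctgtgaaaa
Akr1c18: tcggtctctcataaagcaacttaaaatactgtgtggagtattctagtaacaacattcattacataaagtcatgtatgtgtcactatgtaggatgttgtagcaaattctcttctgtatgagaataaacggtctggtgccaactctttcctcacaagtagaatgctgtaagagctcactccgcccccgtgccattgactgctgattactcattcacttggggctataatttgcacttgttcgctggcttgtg
The capitals in Akr1c14 are a CCAAT box on the opposite strand, read as ATTGG, at -152 to -148 from the start site. Of all 32851 promoters of that length, 33.8% hold CCAAT on either strand. No match to any of the 8 motifs searched was present in the Akr1c18 window. The others were TATAAA (12.4% of all promoters), AGAACA (16.1%) for steroid receptors, AGGTCA (14%) for nuclear receptors, TTCNNNGAA (7.02%) for STAT5, TGACNNNGC (10.2%) for antioxidant response, GTTAAT (6.43%) for HNF1 and CAAAGT (12.6%) for HNF4, each searched on both strands. Aligned over their whole length, the Akr1c14 and Akr1c18 windows were 52.1% identical over the alignment columns, gaps included.

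Akr1c13, which lies beside Akr1c18, went the other way. It read 7.68, 7.20, 7.86 and 7.15 in KL null, 6.51, 6.61, 6.19 and 6.02 in wild-type FGF23, and 6.32, 6.16, 6.31 and 6.69 in wild-type vehicle. The lowest KL null array stood above the highest wild-type array, by 7.15 to 6.69. The KL null difference was 1.10 against vehicle (SE 0.17, 2.15-fold higher, rank 43 from the highest) and 1.14 against FGF23.

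Akr1c12 was also higher in KL null, but by a narrow margin. Its signal was low, under the filter at a mean of 6 used as an alternative, and at low signals differences are compressed. Signals were 6.15, 5.66, 6.67 and 5.77 in KL null, 5.57, 5.37, 5.26 and 5.22 in wild-type FGF23, and 5.28, 5.41, 4.80 and 5.64 in wild-type vehicle. The groups did not overlap, yet KL null array 2 at 5.66 was nearly level with vehicle array 4 at 5.64. The difference was 0.78 against vehicle (SE 0.20, 1.72-fold higher, rank 122 from the highest) and 0.71 against FGF23.

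The windows before Akr1c13 and Akr1c12 are shown because they are nearly copies of each other, and bases that the alignment did not match are in capitals. The Akr1c13 window is chr13:4190937-4191186 on the plus strand and the Akr1c12 window is chr13:4279400-4279649 on the minus strand, RefSeq sequence of GRCm38.p6.
Akr1c13: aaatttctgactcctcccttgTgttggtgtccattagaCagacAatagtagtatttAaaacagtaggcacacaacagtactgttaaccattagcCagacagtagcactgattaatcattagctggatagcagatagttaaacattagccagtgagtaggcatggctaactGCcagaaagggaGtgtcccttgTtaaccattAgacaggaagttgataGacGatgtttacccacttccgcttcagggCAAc
Akr1c12: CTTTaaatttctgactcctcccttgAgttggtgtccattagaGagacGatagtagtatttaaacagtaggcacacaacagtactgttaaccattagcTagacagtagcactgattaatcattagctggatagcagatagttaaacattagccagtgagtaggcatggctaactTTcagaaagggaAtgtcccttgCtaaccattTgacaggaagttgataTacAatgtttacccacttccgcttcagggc
Of the 250 bases of each, 235 were matched and identical and 15 were not matched. Counted over the 254 columns of the alignment, gaps included, the identity was 92.5%. On the same count the other 20 pairs among the 7 members with a RefSeq promoter reached 43.7% to 59.0%. Neither window held any of the 8 motifs. The probe sequences were not used here, so it was not tested how far the probe sets of these close relatives read each other's transcripts.

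The remaining members overlapped between KL null and wild-type vehicle. Akr1c20 ranged from 5.44 to 6.08 in KL null, 5.28 to 5.59 in wild-type FGF23 and 5.13 to 5.53 in wild-type vehicle, with a KL null difference of 0.38 against vehicle (SE 0.13). Akr1c21, the mouse 17-alpha-hydroxysteroid dehydrogenase that forms epitestosterone, ranged from 10.64 to 11.38 in KL null, 10.70 to 11.11 in wild-type FGF23 and 10.93 to 11.23 in wild-type vehicle, a difference of -0.14 (SE 0.14). Akr1c19 ranged from 8.50 to 8.95 in KL null, 8.37 to 8.59 in wild-type FGF23 and 8.49 to 8.87 in wild-type vehicle, a difference of 0.03 (SE 0.11). These 3 genes thus lay within 0.4 of vehicle on average. Akr1c6, the 17-beta-hydroxysteroid dehydrogenase known from mouse liver, stayed between 3.79 and 4.06 on all 12 arrays. At so low a signal differences are compressed, so a change could have gone unseen. The same limit holds in part for Akr1c20, which a filter at a mean of 6 also removed.

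**Figure D1:**
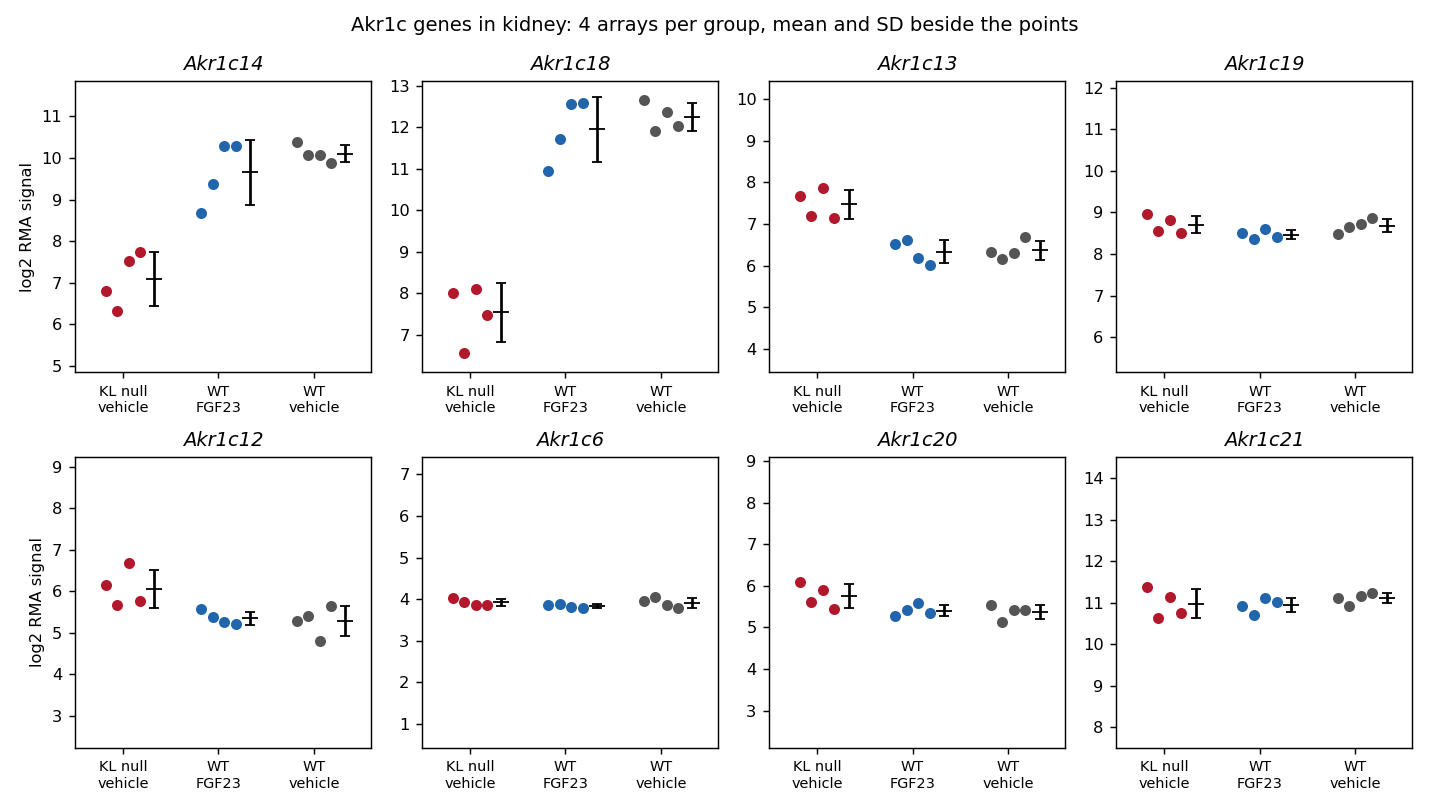
Log2 signal of each of the 8 Akr1c genes on each array, with KL null vehicle, wild-type FGF23 and wild-type vehicle from left to right in every panel; each point is 1 array, the mark beside the points is the group mean with its SD, and every panel spans the same number of log2 units. Akr1c18 and Akr1c14 are lower and Akr1c13 and Akr1c12 higher on all 4 KL null arrays than on the 8 wild-type arrays, and the other 4 genes overlap.

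In all, 4 of the 8 members did not overlap between KL null and wild-type vehicle, 2 higher and 2 lower. Of all genes, 13.8% did not overlap, 6.35% higher and 7.44% lower, and nothing is read from the members' count because the same contrast chose the family. The members' median difference was 0.02, beside 0.03 over all genes. Against wild-type FGF23 the same 4 members did not overlap, 2 in each direction, where 16.1% of all genes did not (7.95% higher, 8.15% lower); both comparisons use the same KL null arrays.

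The direction of the difference changed within the cluster. In RefSeq order along chromosome 13 the members are Akr1c14, Akr1c18, Akr1c13, Akr1c19, Akr1c12, Akr1c6, Akr1c20 and Akr1c21, so that the 2 lower genes sit at 1 end, and the 2 higher genes come after them with Akr1c19 between. The 5 nearest measured protein-coding genes before the cluster are Calm4, Calm5, Net1, Tubal3 and Ucn3. The 5 nearest after it are Akr1e1, Klf6, Pitrm1, Pfkp and Adarb2. Genes not measured here were passed over, so these need not be the adjacent genes. None of the 10 was called in KL null against vehicle by limma, beside 8.01% of all genes, so a count of 0 among 10 says little. Their differences ran from -0.15 for Akr1e1 to 0.32 for Klf6. The smallest adjusted p among these 10 neighbours was 0.0543, for Net1. These neighbours were looked up after the members' values had been seen.

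**Figure D2:**
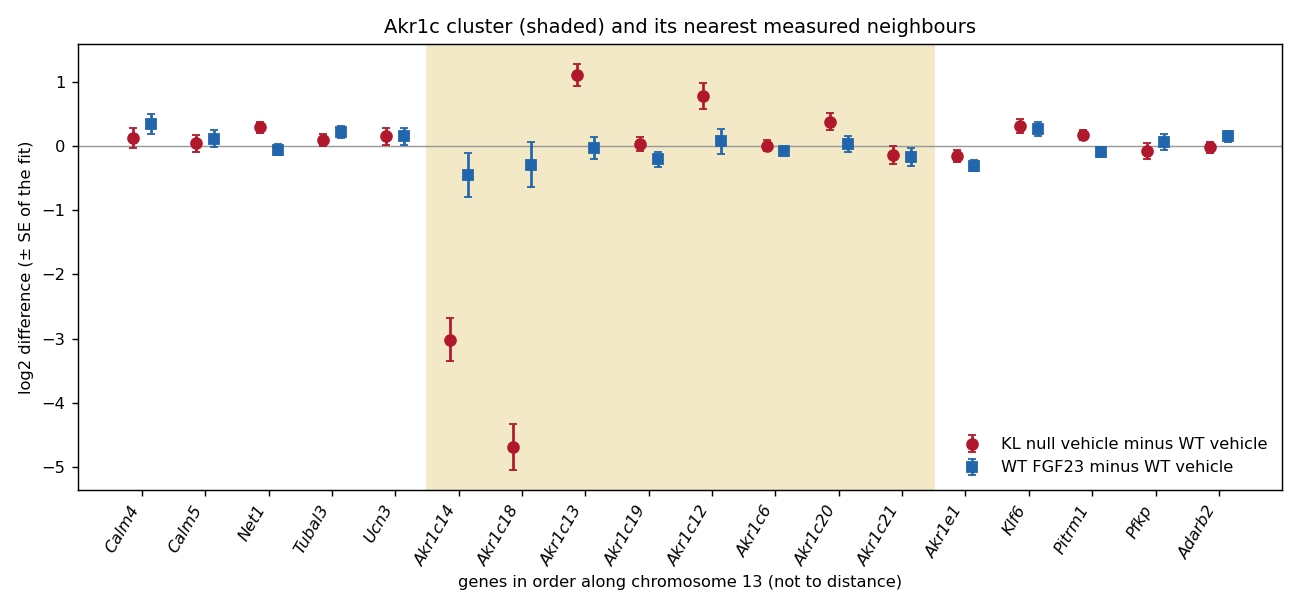
Log2 difference of each Akr1c gene and of the 5 nearest measured protein-coding genes to either side, in order along chromosome 13. Positions are not to genomic scale. Differences are KL null against wild-type vehicle and wild-type FGF23 against wild-type vehicle, and error bars are SE. Akr1c14 and Akr1c18 are far below 0 and Akr1c13 and Akr1c12 above it in KL null, and the 10 neighbouring genes lie between -0.15 and 0.32.

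The effect of FGF23 in wild-type mice was not used to choose the genes and was tested against vehicle. None of the 8 members was called by limma over all genes, where 17 genes (0.0853%) passed, and 0 of 8 had an unadjusted p below 0.05, beside 15.4% of all genes. No member's FGF23 arrays were clear of its vehicle arrays either, against 7.01% of all genes. The members' median difference was -0.12, beside 0.04 over all genes. Akr1c18 differed by -0.29 (95% interval -1.04 to 0.47, adjusted p = 0.6945 by limma) and Akr1c14 by -0.45 (-1.17 to 0.27, adjusted p = 0.506). Both intervals are wide at this number of arrays, and a change of any size within them is compatible with the values. For Akr1c13 the difference was -0.04 (-0.40 to 0.33, adjusted p = 0.9272) and for Akr1c12 it was 0.07 (adjusted p = 0.8745). The member of smallest p was Akr1c19, at -0.21 (-0.45 to 0.03, limma adjusted p = 0.3669). Akr1c21 at -0.17, Akr1c6 at -0.08 and Akr1c20 at 0.03 had adjusted p-values of 0.5606, 0.6393 and 0.9243 in the same limma fit.

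The FGF23 arrays were not alike in Akr1c14 and Akr1c18. Relative to the vehicle mean, Akr1c18 lay at -1.28, -0.52, 0.32 and 0.34 on FGF23 arrays 1 to 4, and Akr1c14 at -1.44, -0.73, 0.18 and 0.19. Arrays 1 and 2 were thus below and arrays 3 and 4 slightly above the vehicle mean in both genes. Without FGF23 arrays 1 and 2, the difference from vehicle changed sign, to 0.33 for Akr1c18 and 0.18 for Akr1c14, and without array 1 alone that of Akr1c18 was 0.042. Without both arrays the difference between KL null and FGF23 became -3.20 for Akr1c14 and -5.01 for Akr1c18. Arrays 1 and 2 are those with the lowest SD over all log2 values. With that SD as a covariate, the difference between FGF23 and vehicle was 0.28 for Akr1c18 and 0.34 for Akr1c14, neither called. Why these arrays differ was not tested. Akr1c21 also had arrays 1 and 2 lowest, while Akr1c6, Akr1c12 and Akr1c13 had them highest; over all genes these arrays were lowest in 19% and highest in 36.4%.

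Akr1c18 and Akr1c14 were among the most variable genes within groups. Their SDs over 4 arrays were 0.71 and 0.66 in KL null, 0.78 and 0.78 in wild-type FGF23, and 0.34 and 0.21 in wild-type vehicle. The median gene had 0.14 in KL null, 0.14 in wild-type FGF23 and 0.12 in wild-type vehicle. In Akr1c14 the SD was at or above that of 99.7% of genes in KL null, 99.9% in wild-type FGF23 and 84.9% in wild-type vehicle. Among the KL null arrays, 1 and 3 were the highest in 6 of the 8 members (Akr1c12, Akr1c13, Akr1c18, Akr1c19, Akr1c20 and Akr1c21), an order seen in 14.8% of all genes. The members read the same 4 samples, so this count describes those arrays and is not a set of independent observations.

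The genes most like Akr1c18 over the arrays were found by a measure of distance. It was the root mean square difference of log2 values over the 12 arrays after each gene's own mean was subtracted, and smaller is more alike. Of genes outside the family, nearest to Akr1c18 were Slc22a7 (0.48), an organic anion transporter, Slc22a19 (0.86), another organic anion transporter, and Rnf24 (0.91). Slc22a7 read 5.93, 5.59, 5.33 and 5.90 in KL null, 8.76, 9.24, 10.52 and 10.51 in wild-type FGF23, and 10.13, 10.16, 10.91 and 9.97 in wild-type vehicle. It too had its FGF23 arrays 1 and 2 below arrays 3 and 4 and all KL null arrays below all others. Because Slc22a7 was chosen for its nearness on these same arrays, this likeness is no separate evidence.

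Outside the family, Akr1c14 was most like C8a (0.30), a chain of complement component 8, Slc17a2 (0.38), an anion transporter of the phosphate transporter family, and Slc22a19 (0.42). C8a averaged 5.47 ± 0.24 in KL null, 7.84 ± 0.83 in wild-type FGF23 and 8.18 ± 0.26 in wild-type vehicle (SD, n = 4 each), a KL null difference from vehicle of -2.71 (SE 0.29). Akr1c14 and Akr1c18 were 0.89 apart by this measure, further than each was from its nearest gene outside the family. Akr1c14 was still nearer to Akr1c18 than Rnf24 was (0.91). The measure counts the size of the KL null difference, -4.69 for Akr1c18 and -3.02 for Akr1c14, and not only the pattern over arrays. Akr1c13 was most like Nqo1 (0.22), a quinone reductase, Nat8 (0.25), an N-acetyltransferase of kidney and liver, and Apoe (0.26), the apolipoprotein. Nqo1 averaged 9.59 ± 0.17 in KL null, 8.41 ± 0.27 in wild-type FGF23 and 8.50 ± 0.19 in wild-type vehicle (SD, n = 4 each). Among members, Akr1c12 and Akr1c13 were 0.27 apart and Akr1c19 and Akr1c21 were 0.15 apart.

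**Figure D3:**
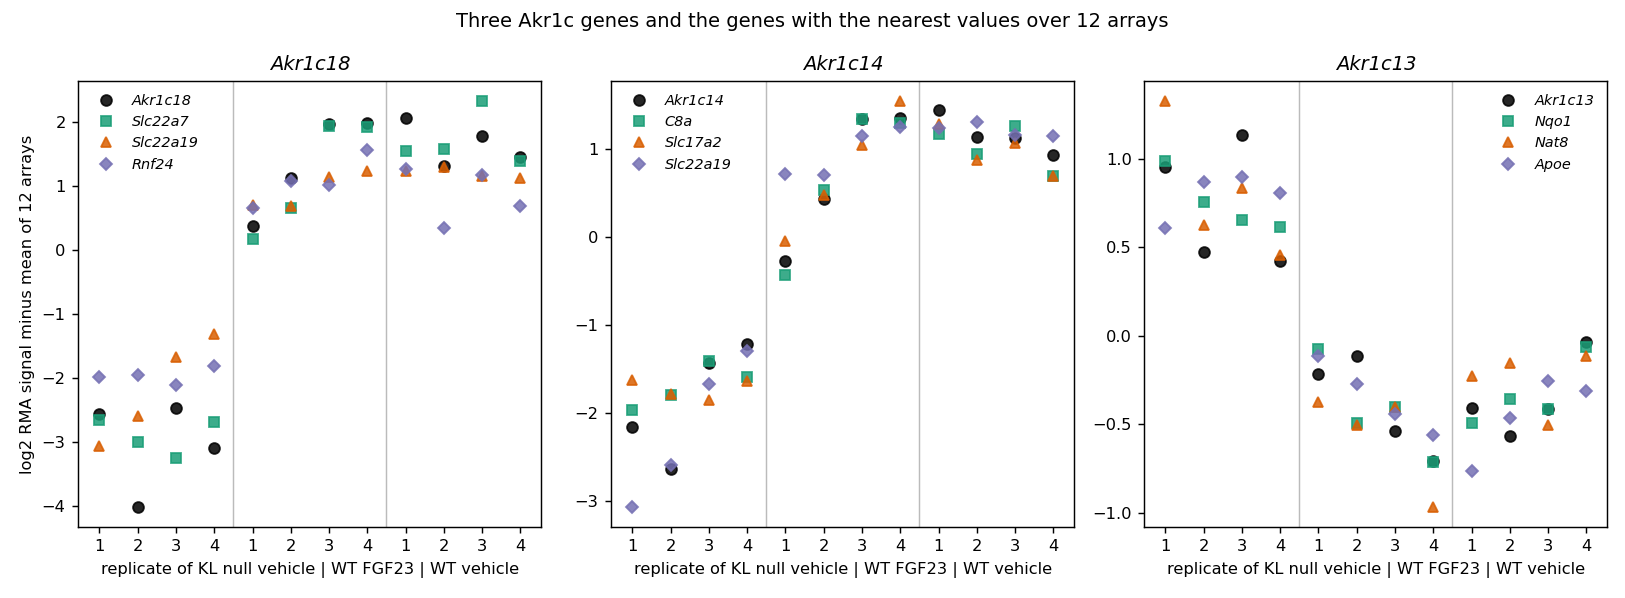
Log2 signal on each of the 12 arrays after subtraction of the gene's own mean, for Akr1c18, Akr1c14 and Akr1c13 with the 3 genes outside the family nearest to each; arrays run KL null vehicle 1 to 4, wild-type FGF23 1 to 4 and wild-type vehicle 1 to 4. Slc22a7, chosen as the gene nearest to Akr1c18 on these same arrays, also has lower values on FGF23 arrays 1 and 2.

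Genes related to the AKR1C enzymes by family, substrate or regulation were tested in the same limma fit over all genes. In KL null against vehicle, 24 of 87 such genes (27.6%) were called, 11 higher and 13 lower, beside 8.01% of all genes (3.58% higher, 4.44% lower). The members themselves are not in these counts. Of the 24 calls, 11 came from 16 genes that differ between the sexes, lists made knowing that some of them change in these data. The other 5 lists had 13 calls among 71 genes (18.3%). Among genes with a mean of at least 6, those 5 lists had 16 calls among 49 (32.7%), beside 16.5% of all such genes. These 5 lists too were chosen with earlier results of these data known, so no enrichment is read from the shares. Over all genes 713 calls were higher and 885 lower, and 453 higher and 1369 lower once each array was centred on its median. FGF23 against vehicle gave 0 of 87 calls by limma, with 17 of them (19.5%) at an unadjusted p below 0.05, beside 15.4% of all genes; the smallest p among other aldo-keto reductases was that of Akr1e1, at -0.31 (limma adjusted p = 0.241).

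Of 10 other aldo-keto reductases, 1 rose and 2 fell in KL null. Akr1b8, an aldose reductase-like enzyme, rose by 0.75 (limma adjusted p = 0.001813), reading 5.58 to 6.14 in KL null, 4.92 to 5.14 in wild-type FGF23 and 4.96 to 5.34 in wild-type vehicle. Akr7a5, an aldehyde reductase, fell by 0.41 (limma adjusted p = 0.01841), and Akr1d1, the 5-beta-reductase of steroids and bile acid precursors, fell by 0.59 (limma adjusted p = 0.03146). Akr1d1 read 8.01, 7.54, 7.46 and 7.44 in KL null, so that its array 1 came close to the vehicle arrays at 8.04 to 8.27. With any 1 of vehicle arrays 1 or 3 or KL null array 3 left out, only 1 of the 10 was called.

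Hydroxysteroid dehydrogenases and 5-alpha-reductases of other families mostly did not pass, with 1 higher, 1 lower and 18 not called of 20. Hsd3b1, a 3-beta-hydroxysteroid dehydrogenase of steroid synthesis, rose by 0.60 (limma adjusted p = 0.01241) at a low signal of 3.24 to 3.87 in KL null, against 2.95 to 3.44 in wild-type FGF23 and 2.73 to 3.10 in wild-type vehicle. Hsd3b5, a 3-ketosteroid reductase of mouse liver, fell by 0.59 (limma adjusted p = 0.04375), and its call was lost in 14 of 23 alternatives. The list had 0 calls without vehicle array 1, and 1 call without any 1 of FGF23 arrays 3 and 4, vehicle arrays 2 and 4 and KL null arrays 1, 2 and 4.

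AKR1C enzymes also handle prostaglandins, and of 24 genes of prostaglandin synthesis, breakdown and reception 4 rose, 3 fell and 17 were not called. Ptgds, lipocalin-type prostaglandin D synthase, rose by 0.66 (limma adjusted p = 0.004512). Its signals were 7.58, 7.73, 7.85 and 7.98 in KL null, 7.44, 7.63, 7.27 and 7.23 in wild-type FGF23, and 6.91, 6.98, 7.28 and 7.35 in wild-type vehicle. Tbxas1, thromboxane synthase, fell by 0.48 (limma adjusted p = 0.009241) and Cbr1, carbonyl reductase, by 0.74 (limma adjusted p = 0.01486). The other calls, named after their values were seen, were Hpgds, Ptgr1 and Ptgfr higher and Hpgd lower. Leaving out vehicle array 1, vehicle array 3 or KL null array 3 brought the count to 3.

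Among receptors, 0 of 8 steroid hormone receptors and progesterone membrane components were called by limma, beside 8.01% of all genes. Of the 8, 2 had an unadjusted p below 0.05, beside 21.3% of all genes. The smallest p was that of Pgrmc1, at -0.21 (limma adjusted p = 0.1105). Of 9 genes of prolactin and growth hormone reception and STAT5 signalling, 1 fell and 8 were not called. Ghr, the growth hormone receptor, fell by 0.73 (limma adjusted p = 0.0005059), with 10.84, 11.12, 11.10 and 10.98 in KL null, 11.40, 11.49, 11.74 and 11.84 in wild-type FGF23, and 11.77, 11.70, 11.75 and 11.74 in wild-type vehicle. This list's count was 4 without FGF23 array 1, 3 without FGF23 array 4, and 2 without FGF23 array 2 or 3, vehicle array 4 or KL null array 4.

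Akr1c18 and Akr1c14 were also set beside genes that differ between male and female mouse kidney, and these lists are for the reason given no independent evidence of direction. Of 4 genes higher in female kidney 3 fell and 1 rose in KL null. Slc22a7 differed by -4.61 (limma adjusted p = 2.78e-06), Slc22a19 by -3.37 (7.415e-06) and Slc7a12, an amino acid transporter, by -0.98 (0.002115). Cyp4a14, a fatty acid hydroxylase, rose by 0.66 (limma adjusted p = 0.007715). Of 12 genes higher in male kidney 4 rose, 3 fell and 5 were not called. Kap, kidney androgen-regulated protein, fell by 1.49 (limma adjusted p = 1.054e-05) and Odc1, ornithine decarboxylase, by 1.14 (limma adjusted p = 6.171e-05). Cyp4a12b, a fatty acid hydroxylase, rose by 1.81 (limma adjusted p = 6.904e-05). The male-higher list thus moved in both directions.

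**Figure D4:**
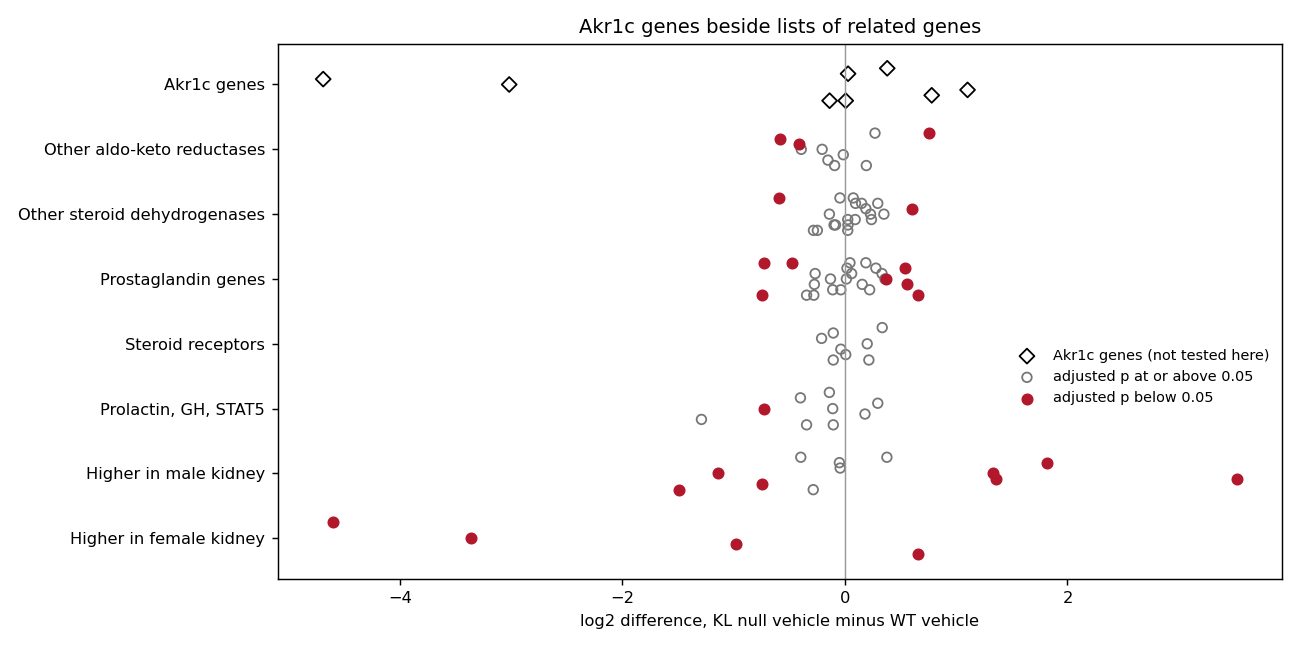
Log2 difference, KL null against wild-type vehicle, of every measured gene in the 7 lists of related genes and of the 8 Akr1c members; filled points passed limma's adjusted p over all genes, and members carry no test. Slc22a7 is the list gene furthest below 0, near Akr1c18.

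Markers of the proximal tubule differed between the genotypes. Of 8 markers of the straight segment of the proximal tubule 5 fell and 2 rose. The falls of smallest p were -1.77 for Aadat, -1.46 for Acy3 and -1.46 for Slc5a10. The rises, named after their values were seen, were 3.52 for Slc7a13 (limma adjusted p = 0.0005059), an amino acid transporter that also stands in the male-higher list, and 0.48 for Cyp7b1. Slc7a13 read 8.23 to 11.33 in KL null, 5.48 to 6.79 in wild-type FGF23 and 5.65 to 6.07 in wild-type vehicle. The mean log2 signal of all 8 was 10.01 to 10.34 in KL null, 10.37 to 10.49 in wild-type FGF23 and 10.41 to 10.45 in wild-type vehicle, and that of the 7 without Slc7a13 was 10.13 to 10.36 in KL null, 10.92 to 11.21 in wild-type FGF23 and 11.03 to 11.14 in wild-type vehicle. Of 8 early proximal markers 5 fell and 0 rose, with a mean of 11.81 to 11.98 in KL null, 12.12 to 12.16 in wild-type FGF23 and 12.17 to 12.33 in wild-type vehicle. Of 5 injury markers 3 rose, Lcn2 most by 2.39. The mean of all 5 was 7.42 to 8.52 in KL null, 6.72 to 7.82 in wild-type FGF23 and 6.57 to 7.98 in wild-type vehicle. It includes Havcr1, which read 9.87 on FGF23 array 4, 10 on vehicle array 1 and 4.59 to 5.66 on the other wild-type arrays. Of 5 leukocyte markers 2 rose, Lyz2 and Cd68. The part of segments, injury and leukocytes in the Akr1c values was not tested.

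Tissues in which Akr1c18 and its relatives are well known were checked too. None of 10 adrenal markers was called in KL null by limma, beside 8.01% of all genes. Of the 10, 1 had an unadjusted p below 0.05, beside 21.3% of all genes. Their mean was 4.62 to 4.98 in KL null, 4.79 to 4.96 in wild-type FGF23 and 4.65 to 4.83 in wild-type vehicle. Single adrenal markers ranged from 3.29 to 6.16 over the arrays. Of 6 ovary markers 1 rose (Bmp15) and of 7 liver markers 1 fell (Alb). The loop of Henle and distal tubule list had 1 rise (Cldn16) and 1 fall (Slc12a3) among 5. The collecting duct list had 0 calls among 7 by limma, with 2 at an unadjusted p below 0.05, beside the same 21.3% of all genes.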

How the data were processed

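Per the submitters' processing notes, the authors used Partek 6.2 and RMA to make the deposited log2 signals. RMA compresses differences of dim probe sets, and the background and probe-level settings are not given in the sources used here. Of 28853 probe sets, 21789 had 1 gene symbol in the platform annotation, 1621 had several and 5443 had none; only the first kind was named. A gene with several probe sets was represented by the one of highest mean, which left 19938 genes.

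One limma 3.58.1 fit (R 4.3.3; lmFit and eBayes, two-sided) estimated 3 group means from all 12 arrays, leaving 9 residual degrees of freedom. Genes were called at a Benjamini-Hochberg adjusted p below 0.05 over all genes. The fit was tried on simulated data with independent noise for each gene and array. That simulation held no differences shared by whole arrays, such as those of FGF23 arrays 1 and 2, so it says nothing about them. Figures were drawn with matplotlib 3.10.9 and tables made with pandas 2.3.3 in Python 3.11.15. The members, the gene lists and the tests were chosen with earlier results of these data known. Named genes are the 8 members, per list up to 3 called genes of smallest p (or the 1 of smallest p), and the 3 genes outside the family nearest to each member whose group means span at least 1. Promoters came from the RefSeq table of GRCm38.p6, which matched 7 of the 8 members; Akr1c20 is named only. The array annotation need not use that build.

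Equal replicate numbers did not pair FGF23 with vehicle (correlations of deviations -0.22, 0.19, 0.11 and -0.16) or KL null with vehicle (-0.14, 0.17, -0.04 and -0.02). For KL null with FGF23 they were 0.22, 0.14, 0.26 and 0.19, and a replicate block leaves those differences as they are. Precision is limited by having 4 arrays per group. Alternatives left out arrays, changed the scaling, the covariates, the moderation, the filter or the choice of probe set. Arms of the protocol given another growth factor were not analysed here.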

Additional observations from a re-analysis of the deposited data

How the results depend on the processing

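Over 25 alternatives, 12 of which left out 1 array, 0 members were called in FGF23 against vehicle. The KL null differences from vehicle kept their sign for the 4 members without overlap. Leaving out 1 array gave -4.88 to -4.37 for Akr1c18, -3.23 to -2.76 for Akr1c14, 0.97 to 1.21 for Akr1c13 and 0.58 to 0.91 for Akr1c12. Differences between FGF23 and vehicle changed sign for several members. Leaving out 1 array gave -0.498 to 0.042 for Akr1c18, -0.665 to -0.125 for Akr1c14, -0.130 to 0.069 for Akr1c13, -0.088 to 0.192 for Akr1c12 and -0.052 to 0.082 for Akr1c20. Without FGF23 arrays 1 and 2 the values were 0.33 for Akr1c18, 0.18 for Akr1c14 and -0.043 for Akr1c12, and KL null against FGF23 was -3.20 for Akr1c14 and -5.01 for Akr1c18. With array spread as a covariate they were 0.28 for Akr1c18, 0.34 for Akr1c14 and -0.048 for Akr1c12. With further quantile normalization they were -0.072 for Akr1c12 and -0.11 for Akr1c20, and with median centring -0.02 for Akr1c20. The cause was not tested. The replicate block left 0 members called in FGF23 against vehicle, brought all calls there to 6, and left 24 list genes called in KL null.

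List genes called in KL null numbered 16 to 25 with 1 array left out. All calls of FGF23 against vehicle numbered 17, with 4 to 11 without any 1 array but KL null array 4 (14), and 2 to 19 otherwise. All calls of KL null against vehicle numbered 1598. They were 831 without vehicle array 1, 828 without vehicle array 3, 1003 without KL null array 2, 856 without KL null array 3, at most 1728 without any other, and 1184 to 2852 otherwise, most with array weights. Lost calls were followed only for the up to 3 called genes of smallest p in each list. Other called genes, such as Hpgds, Ptgr1, Ptgfr and Hpgd, were not followed singly. Among those followed, Akr1d1 lost its call in 7 and Akr7a5 in 4 of 24 alternatives. Hsd3b5 lost it in 14 and Hsd3b1 in 2 of 23, and Cbr1 in 1 of 24. Among markers Slc12a3 lost its call in 13, Cd68 in 10, Alb in 5 and Cldn16 in 4 of 24, and Bmp15 in 10 and Krt20 in 4 of 23. A filter at a mean of 6 removed Akr1c6, Akr1c12 and Akr1c20. No member was tested against its array background, for which scanner values would be needed. Leaving out KL null arrays 1 and 2 together was chosen after seeing the data.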

Other observations

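Some steroid and injury genes differed between arrays of 1 wild-type group by more than most Akr1c members did, and they are given here as values chosen after being seen. Hsd3b2, a 3-beta-hydroxysteroid dehydrogenase, read 9.83 to 10.14 in KL null, 8.33, 8.43, 10.26 and 10.23 in wild-type FGF23, and 10.46, 10.69, 10.89 and 8.94 in wild-type vehicle. It shared with Akr1c14 and Akr1c18 the lower values on FGF23 arrays 1 and 2. Hsd3b3, of the same family, read 7.28 to 8.56 in KL null, 7.94 to 8.17 in wild-type FGF23, and 8.05, 6.35, 6.84 and 8.81 in wild-type vehicle.

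Havcr1, which encodes the injury marker KIM-1, read 9.87 on FGF23 array 4 and 10 on vehicle array 1. It read 6.24 to 7.26 in KL null and 4.59 to 5.66 on the other 6 wild-type arrays. On FGF23 array 4 and vehicle array 1, Akr1c18 read 12.57 and 12.65, and Akr1c14 10.29 and 10.39, each the highest value of its group. FGF23 array 3, where Havcr1 read 5.66, was nearly level with array 4, at 12.55 for Akr1c18 and 10.28 for Akr1c14.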
